A study of Mus musculus with 8 samples.

Results

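The data described here are those of 9 genes of the plasminogen activator system, the serpin family and the HtrA family in primary murine articular chondrocytes: *Plau*, *Plat*, *Plaur*, *Serpine2*, *Serpinb2*, *Serpina3n*, *Serpinf1*, *Htra1* and *Htra3*. They are the genes of the deposited count table whose names equalled these symbols, of 54658 genes listed, and 8 of the 9 passed the filter on low values (above 1 CPM in at least 4 samples, CPM being a gene's count scaled by its library's total), which left 14404 genes in all. *Serpinb2* stayed under the filter and is given by its counts. The cells came from femoral heads of wild-type mice 3 weeks old, were cultured in 12-well plates, and received either 1 ng/mL IL-1β, an inflammatory cytokine, or vehicle for 24 h, with 4 samples per group and RNA-Seq of total RNA. Neither group carried a mutated allele or a transgene. The labels do not say whether the samples came from separate animals or separate cultures, so the p-values measure the spread between these samples, which may be technical.

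Plasmin, the active form of plasminogen, is a secreted serine protease that cleaves fibrin and many matrix proteins and can activate latent matrix metalloproteinases and growth factors. Urokinase (uPA, *Plau*) and tissue plasminogen activator (tPA, *Plat*) convert plasminogen into plasmin, and the urokinase receptor (uPAR, *Plaur*) holds uPA at the cell surface. Most serpins are inhibitors that trap a serine protease by a change of their own shape, and some, such as *Serpinf1* (pigment epithelium-derived factor) and the collagen chaperone *Serpinh1*, inhibit none. The HtrA proteins are serine proteases outside the plasmin system, and the secreted *Htra1* and *Htra3* degrade matrix proteins and bind TGF-β family members.

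With IL-1β, *Plat* rose 3.66-fold from a very low level and *Plaur* rose 1.16-fold from a high one. *Htra3*, *Serpinf1* and *Htra1* fell to 0.548, 0.652 and 0.790 times the vehicle level. *Plau*, *Serpine2* and *Serpina3n* did not pass the test. Of the 8 members tested, 5 passed edgeR's quasi-likelihood test (Benjamini-Hochberg adjusted p under 0.05 over all genes tested), 2 upward and 3 downward, where 40.2% of all genes tested passed, 20.4% upward and 19.8% downward. Of these, 1 was a DEG, defined as a gene that passed with more than a 2-fold change (*Plat*, upregulated), where 5.21% of all genes tested were DEGs, 2.86% upregulated and 2.35% downregulated. *Plat* passed the filter through its IL-1β samples only, so it had to differ and nothing is read from this count. With the filter set above 1 CPM in each of the 8 samples, *Plat* was not tested and 0 members were DEGs. The groups did not overlap in the same 5 members, where this was so for 36.8% of all genes tested. The median log2 fold change of the 8 members was -0.18 and that of all genes tested was -0.0012.

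**Figure D1:**
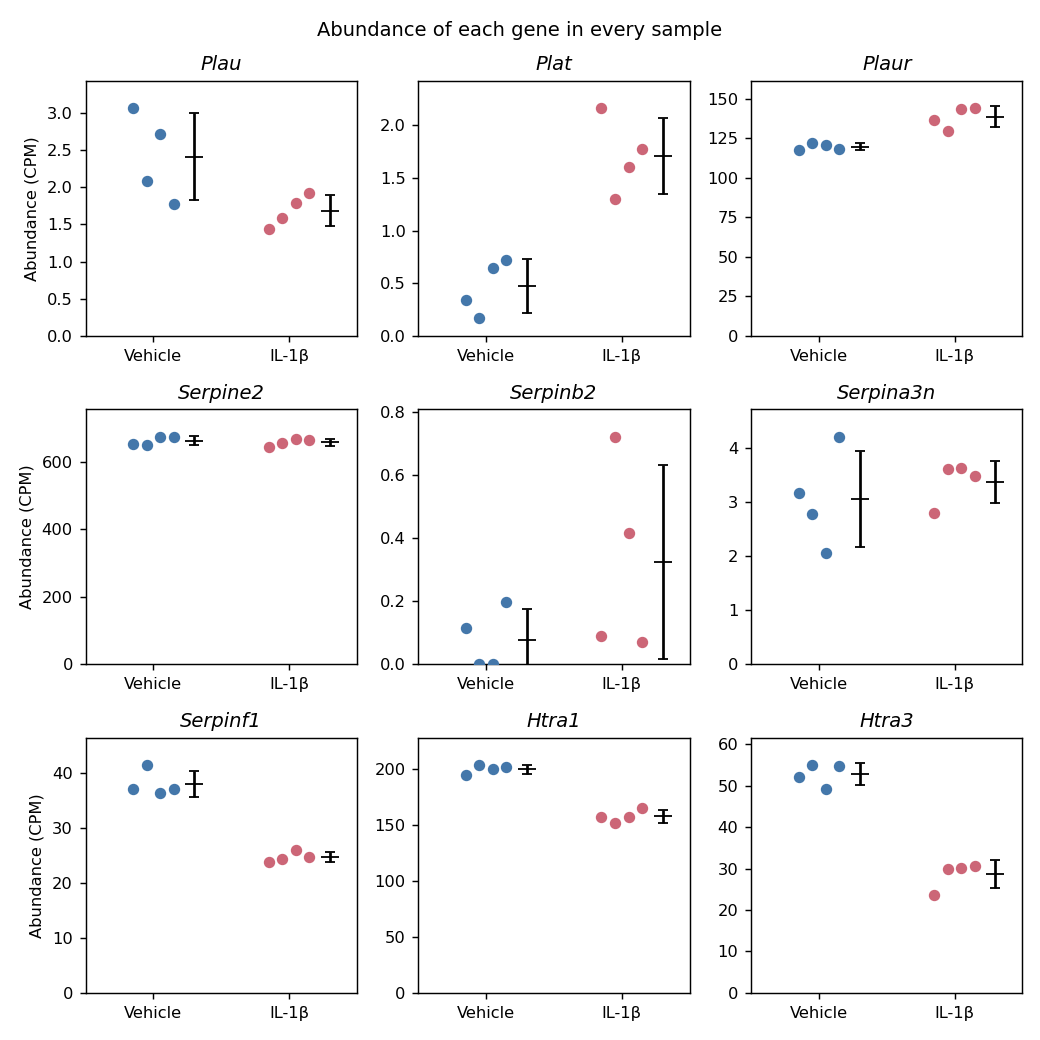
CPM of each of the 9 genes in every sample (points), with vehicle on the left and IL-1β on the right of each panel, bars at the mean ± SD (n = 4) and each axis starting at 0, where the bar of *Serpinb2* in vehicle is cut off. The IL-1β samples lie above all vehicle samples for *Plat* and *Plaur*, below all of them for *Serpinf1*, *Htra1* and *Htra3*, and overlap them for the other 4 genes.

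The total counts per sample ran from 10992355 to 17456063, and 3 counts corresponded to 0.172 to 0.273 CPM. The markers of chondrocytes fixed for these cells were all 9 tested and all 9 fell with IL-1β, with a summed level of 3702 to 4074 CPM against 14735 to 15312 CPM with vehicle. All 3 tested of 4 osteoblast markers fell as well, from 84.0 to 94.9 CPM in sum to 25.9 to 31.4 CPM. The 8 macrophage markers summed to 16.0 to 19.5 CPM with IL-1β and 11.9 to 13.05 CPM with vehicle, and of the 2 tested *Cd68* rose (log2 fold change 0.67) and *Lyz2* fell (-0.60). The 6 neutrophil markers summed to 1.15 to 1.49 CPM and 0 to 0.394 CPM, of which *Camp* made up 71 against 9 counts over the groups, with *Ly6g*, *Mpo* and *Elane* at 0 counts in all samples. The 6 endothelial markers summed to 0.649 to 1.25 CPM and 0.751 to 1.07 CPM, none of them tested. The 6 fibroblast markers, 4 of them tested, summed to 185.6 to 202.9 CPM and 169.2 to 176.5 CPM, and *Pdpn* (2.26) and *Pdgfra* (0.58) rose while *Col3a1* (-0.34) fell. The part of these markers in the results below was not tested, and in bulk RNA fewer cells of a type and less RNA per cell cannot be told apart.

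*Plau* (ENSMUSG00000021822.3; GRCm38 chromosome 14, 20836660 to 20843385, plus strand) encodes uPA, the activator that works bound to its cell surface receptor. Its level was 1.44, 1.59, 1.78 and 1.91 CPM in the 4 IL-1β samples and 3.06, 2.08, 2.71 and 1.77 CPM in the 4 vehicle samples, which rested on 16 to 30 counts and 27 to 53 counts per sample. Vehicle replicate 4 lay within the range of the IL-1β samples, so the groups overlapped, and the vehicle samples spread more widely. The means were 1.68 ± 0.209 and 2.41 ± 0.584 CPM (SD, n = 4), with a log2 fold change of -0.50 (SE 0.209, 95% interval -0.93 to -0.075). *Plau* did not pass edgeR's quasi-likelihood test (adjusted p = 0.0559, unadjusted p = 0.0229), and the call depended on single samples, since the adjusted p was 0.0231 without vehicle replicate 4, 0.0477 without vehicle replicate 2 and 0.231 without vehicle replicate 1, the highest of all alternatives.

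*Plat* (ENSMUSG00000031538.6; chromosome 8, 22757727 to 22782844, plus strand) encodes tPA, the activator whose activity is greatest on fibrin. The 4 IL-1β samples had 24, 18, 27 and 25 counts, or 2.16, 1.30, 1.60 and 1.77 CPM, and the 4 vehicle samples had 6, 3, 9 and 11 counts, or 0.346, 0.173, 0.642 and 0.723 CPM. The groups did not overlap, the IL-1β samples being the higher, and vehicle replicate 2 was at the level of 3 counts. The means were 1.71 ± 0.360 and 0.471 ± 0.256 CPM, a log2 fold change of 1.87 (SE 0.320, 95% interval 1.21 to 2.53; adjusted p = 2.09e-05, edgeR's quasi-likelihood test). No vehicle sample exceeded 1 CPM, so the gene was tested through its IL-1β samples only. Leaving out 1 sample at a time gave log2 fold changes from 1.58, without vehicle replicate 2, to 2.16, without vehicle replicate 4. *Plat* passed in each, but these fits kept the same filtered genes, so nothing is read from its passing.

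The share of tPA transcripts among the activator transcripts was read from counts divided by gene length. This length is the number of annotated exon bases of a gene and not that of an expressed transcript. *Plat* made up 36.3, 23.7, 25.4 and 26.0% of the summed *Plau* and *Plat* counts per kilobase in the IL-1β samples and 4.12, 3.06, 8.24 and 13.4% in the vehicle samples. The 2 groups did not overlap in this share, whose means were 27.8 ± 5.70% and 7.20 ± 4.69% (SD, n = 4). Per kilobase, *Plau* was the larger part in all 8 samples. Without division by length the shares of *Plat* were 50.1 ± 6.72% and 16.5 ± 9.65%, since the gene is the longer of the pair. *Plat* was then the larger part in IL-1β replicate 1, with 60.0%, and the smaller part in the other samples.

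*Plaur* (ENSMUSG00000046223.10; chromosome 7, 24462484 to 24475968, plus strand) encodes uPAR, a receptor anchored in the membrane by a lipid. The IL-1β samples had 136.6, 129.9, 143.7 and 143.9 CPM and the vehicle samples 117.3, 121.9, 120.9 and 118.0 CPM. All IL-1β samples lay above all vehicle samples, and the step between the groups was small beside the level. The means were 138.5 ± 6.69 and 119.5 ± 2.24 CPM, a log2 fold change of 0.21 (SE 0.0344; adjusted p = 8.40e-06, edgeR's quasi-likelihood test), and the fold change of 1.16 had a 95% interval of 1.10 to 1.22. *Plaur* is also made by macrophages, whose tested markers did not move together: *Cd68* rose from 9.48 ± 0.730 to 14.99 ± 1.56 CPM (adjusted p = 8.49e-07) and *Lyz2* fell from 1.86 ± 0.312 to 1.24 ± 0.225 CPM (adjusted p = 0.0364). The other 6 markers were under the filter, with *Ptprc* (CD45) at 0 to 6 counts per sample and a summed level over all 8 of 11.9 to 13.05 CPM with vehicle and 16.0 to 19.5 CPM with IL-1β, and their part in the rise of *Plaur* was not tested.

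The promoter of *Plaur* is shown because it alone, among the 6 tested members with an entry in the RefSeq promoter table, held a match to the motif of AP-1, a transcription factor. The bases are the 250 before the RefSeq start (GRCm38.p6, chr7:24462233-24462482, plus strand), with the match in capitals.
Plaur: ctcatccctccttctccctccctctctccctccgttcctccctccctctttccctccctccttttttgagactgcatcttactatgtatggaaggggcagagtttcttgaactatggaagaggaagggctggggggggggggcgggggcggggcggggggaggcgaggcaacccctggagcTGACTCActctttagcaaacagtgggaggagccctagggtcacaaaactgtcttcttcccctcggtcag
The match TGACTCA lay 69 to 63 bases before the start. AP-1 was searched as TGANTCA on both strands, and 2217 of 32851 promoters of this length (6.75%) held a match. *Serpinb2*, with its pair of listed starts, held TGAATCA, at 94 to 88 bases before 1 start and 181 to 175 bases before the other. None of the 7 members with a promoter in the table held a match to the NF-κB motif, which 7.25% of all promoters held. A match describes the letters of this window and not a bound site.

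The other genes around the receptor were taken from fixed lists. Plasminogen itself (*Plg*) and prekallikrein (*Klkb1*) were at 0 counts in all 8 samples, and *A2m*, a broad protease trap that binds plasmin, did not pass edgeR's quasi-likelihood test (log2 fold change -0.31, adjusted p = 0.0644). Of 4 cell surface proteins that bind plasminogen, 1 rose and 1 fell, against 20.4% and 19.8% of all genes tested, with a list median of -0.046. *Eno1*, the glycolytic enzyme enolase, rose from 1737 ± 57.4 to 2612 ± 14.5 CPM (log2 fold change 0.59, adjusted p = 4.29e-17), and *S100a10*, the partner of annexin A2, fell from 100.4 ± 2.62 to 65.8 ± 2.44 CPM (log2 fold change -0.61, adjusted p = 8.12e-14).

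A further list held 10 partners of uPAR and receptors that clear complexes of proteases with inhibitors, and 9 were tested. Of these 3 rose and 4 fell, against 20.4% and 19.8% of all genes tested, with a list median of -0.085. *Egfr*, the epidermal growth factor receptor, had the largest rise of the list, from 54.1 ± 2.68 to 90.1 ± 2.67 CPM (log2 fold change 0.74, adjusted p = 8.74e-15, edgeR's quasi-likelihood test). *Itgb3*, a chain of the vitronectin receptor, had the largest fall, from 1.74 ± 0.358 to 1.09 ± 0.232 CPM (log2 fold change -0.68, adjusted p = 0.0283), and passed in 8 of 14 alternatives, with adjusted p-values up to 0.113: not with DESeq2, nor without IL-1β replicate 3 or 4, or vehicle replicate 2, 3 or 4. *Lrp1*, the endocytic receptor that removes complexes of uPA or tPA with serpins, rose from 2059 ± 29.6 to 2512 ± 82.7 CPM (log2 fold change 0.29, adjusted p = 4.46e-10).

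**Figure D2:**
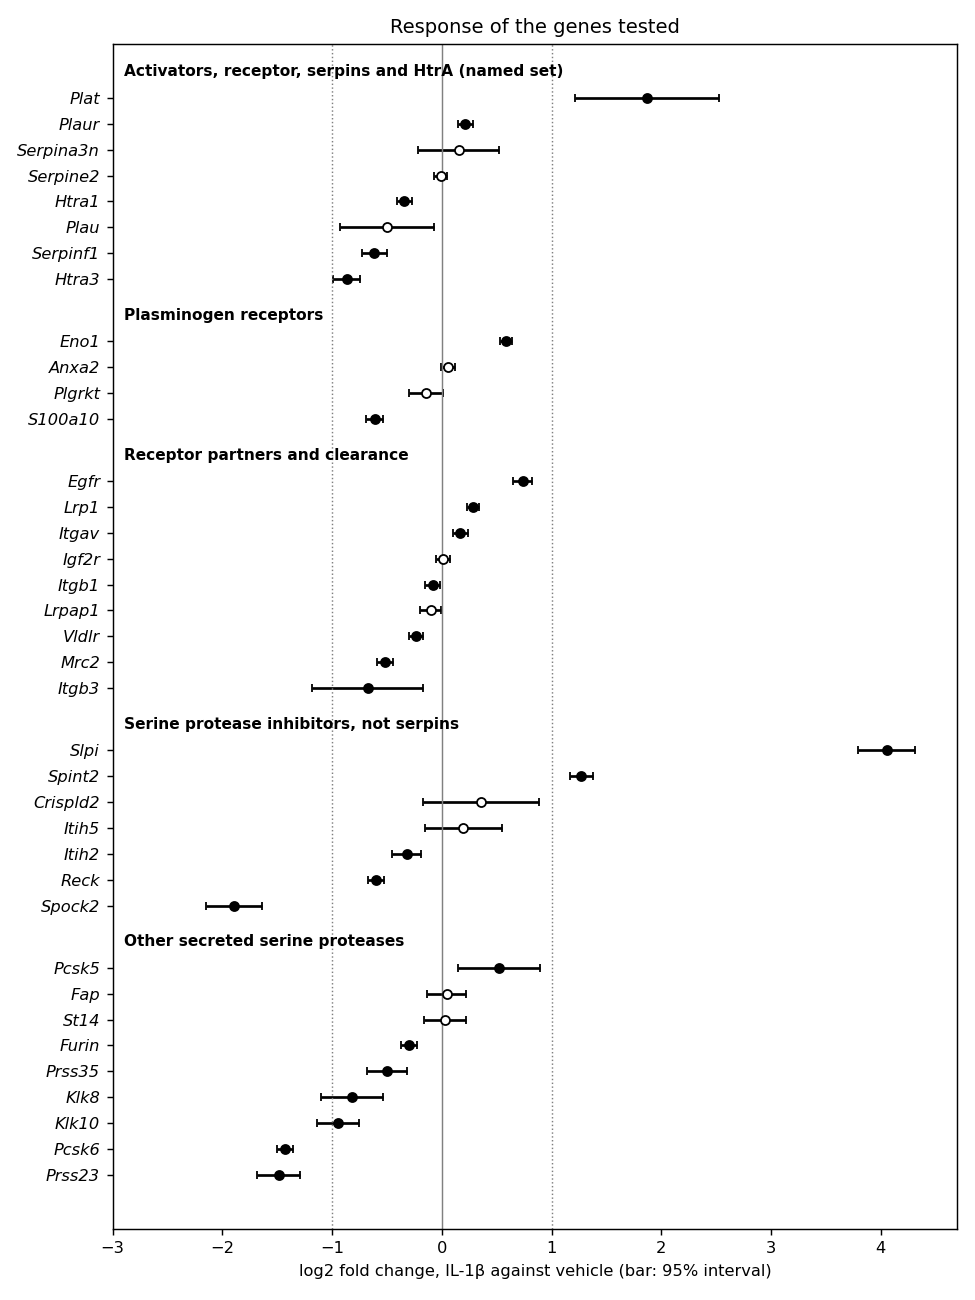
Log2 fold change of IL-1β against vehicle for the tested members and for the tested genes of 4 related lists, with 95% intervals; filled points have an adjusted p under 0.05 and dotted lines mark 1 and -1. Among the members *Plat* alone lies beyond a dotted line, with 1.87, and *Htra3* is the lowest, with -0.87. The inhibitor block also holds genes not established as inhibitors of serine proteases, among them *Reck* and *Spock2*.

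Among the inhibitors, *Serpine2* (ENSMUSG00000026249.10; chromosome 1, 79794197 to 79861180, minus strand) was the most abundant member. It encodes protease nexin-1, which inhibits thrombin, uPA and plasmin. The IL-1β samples had 642.9, 656, 666 and 665 CPM and the vehicle samples 652, 648, 674 and 674 CPM. The groups overlapped over most of their range, and the samples of either group lay close together. The means were 657.5 ± 10.7 and 662 ± 13.7 CPM, a log2 fold change of -0.0099 (SE 0.0292; adjusted p = 0.827, edgeR's quasi-likelihood test), and the fold change of 0.993 had a 95% interval of 0.953 to 1.04.

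*Serpinb2* (ENSMUSG00000062345.10; chromosome 1, 107511423 to 107535478, plus strand) encodes plasminogen activator inhibitor 2, which stays mostly within the cell. Its counts were 1, 10, 7 and 1 in the IL-1β samples and 2, 0, 0 and 3 in the vehicle samples, or 19 against 5 in sum. IL-1β replicates 2 and 3 stood above the rest, and the other 2 IL-1β samples lay within the vehicle range. No fold change is given, since most samples were at or under 3 counts. Of its exon bases, 291 (12.4%) are shared with *Serpinb10* on the same strand, which had 0 or 1 counts per sample.

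*Serpina3n* (ENSMUSG00000021091.8; chromosome 12, 104406729 to 104414329, plus strand) encodes a secreted acute phase serpin related to human antichymotrypsin. The IL-1β samples had 2.79, 3.61, 3.62 and 3.48 CPM and the vehicle samples 3.17, 2.77, 2.07 and 4.21 CPM. Vehicle replicates 3 and 4 were the lowest and the highest of all 8 samples, so the vehicle range enclosed the IL-1β range. The means were 3.37 ± 0.393 and 3.06 ± 0.893 CPM, a log2 fold change of 0.15 (SE 0.180, 95% interval -0.22 to 0.52; adjusted p = 0.553, edgeR's quasi-likelihood test), on 29 to 64 counts per sample. This is an uncertain count in another respect, since 139 of its 2015 windows of 50 bases (6.90%) also occur in transcripts of other *Serpina3* genes. Of these, *Serpina3c* had 3 to 8 counts per sample, and *Serpina3g* and *Serpina3m* had 0.

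*Serpinf1* (ENSMUSG00000000753.15; chromosome 11, 75409769 to 75422701, minus strand) encodes pigment epithelium-derived factor, a secreted serpin known to restrain blood vessel growth and made by bone and cartilage cells. The IL-1β samples had 23.9, 24.4, 26.0 and 24.7 CPM and the vehicle samples 37.0, 41.4, 36.4 and 37.1 CPM. The groups did not overlap, the vehicle samples being the higher, and vehicle replicate 2 stood above the other 3. The means were 24.7 ± 0.917 and 38.0 ± 2.32 CPM, a log2 fold change of -0.62 (SE 0.0549; adjusted p = 1.98e-10, edgeR's quasi-likelihood test), and the fold change of 0.652 had a 95% interval of 0.603 to 0.705. The osteoblast markers moved in the same direction, from a sum of 84.0 to 94.9 CPM with vehicle to 25.9 to 31.4 CPM with IL-1β, and their part in this fall was not tested.

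Of the 59 other serpins in the table, 27 had no count in any sample and 6 passed the filter. *Serpinb1a*, an intracellular inhibitor of elastase-like proteases, was a DEG, downregulated from 4.41 ± 0.937 to 2.15 ± 0.505 CPM (log2 fold change -1.02, SE 0.185; adjusted p = 4.40e-05, edgeR's quasi-likelihood test). The 2-fold limit was no longer met without vehicle replicate 3 (-0.88), without IL-1β replicate 2 (-0.89) or without IL-1β replicate 4 (-0.99), while the gene passed the test in all 15 alternatives. *Serpinh1*, which assists collagen folding in the endoplasmic reticulum and inhibits no protease, fell from 2982 ± 51.2 to 1916 ± 83.5 CPM (log2 fold change -0.64, adjusted p = 3.42e-17). *Serpinb6a*, an intracellular inhibitor, rose from 209 ± 3.11 to 228 ± 5.53 CPM (log2 fold change 0.12, adjusted p = 0.00158).

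The composition of the serpin transcripts was described as shares of the summed counts per kilobase of all 63 serpins. *Serpinh1* alone took 88.1 ± 0.197% with vehicle and 82.1 ± 0.655% with IL-1β (SD, n = 4), and the members took far smaller shares: *Serpine2* 5.77 ± 0.141% and 8.31 ± 0.167%, *Serpinf1* 1.16 ± 0.0603% and 1.10 ± 0.0180%. A share also moves with every other gene of the pool, as the larger share of *Serpine2* at a like level shows. Among the 62 serpins other than *Serpinh1*, *Serpine2* held 48.5 ± 0.801% with vehicle and 46.4 ± 0.859% with IL-1β, and *Serpinf1* 9.78 ± 0.630% and 6.13 ± 0.212%. *Serpina3n* held 0.900 ± 0.267% and 0.956 ± 0.110%. *Serpine2* was thus the largest of these 62 in either group, followed by *Serpinb6a* with 23.5 ± 0.315% and 24.7 ± 0.584%.

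**Figure D3:**
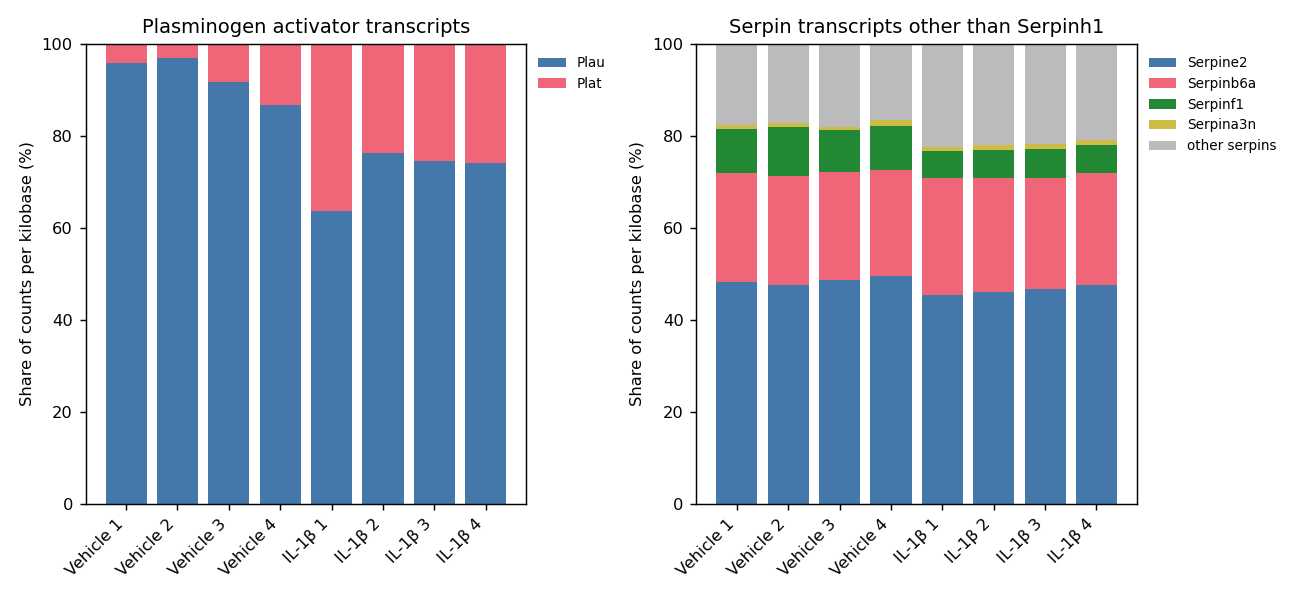
Stacked shares of counts per kilobase in each of the 8 samples, in percent, for the activators *Plau* and *Plat* (left) and for the serpins other than *Serpinh1* (right). *Plat* takes 23.7 to 36.3% of the activator bars with IL-1β and 3.06 to 13.4% with vehicle, and *Serpine2* is the largest part of every serpin bar.

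*Htra1* (ENSMUSG00000006205.13; chromosome 7, 130936111 to 130985660, plus strand) encodes a secreted protease that degrades fibronectin and proteoglycans of cartilage. The IL-1β samples had 156.5, 151.8, 156.8 and 165.2 CPM and the vehicle samples 194.0, 203.1, 200.1 and 201.2 CPM. The lowest vehicle sample exceeded the highest IL-1β sample. The means were 157.6 ± 5.57 and 199.6 ± 3.92 CPM, a log2 fold change of -0.34 (SE 0.0315; adjusted p = 4.46e-10, edgeR's quasi-likelihood test), and the fold change of 0.790 had a 95% interval of 0.755 to 0.826.

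*Htra3* (ENSMUSG00000029096.15; chromosome 5, 35652023 to 35679782, minus strand), a close relative of *Htra1*, had the largest fall of the 8 tested members. The IL-1β samples had 23.7, 29.9, 30.2 and 30.7 CPM and the vehicle samples 52.0, 54.9, 49.3 and 54.6 CPM. The groups lay far apart, and IL-1β replicate 1 stood below the other 3 of its group. The means were 28.6 ± 3.31 and 52.7 ± 2.62 CPM, a log2 fold change of -0.87 (SE 0.0583; adjusted p = 4.25e-13, edgeR's quasi-likelihood test), and the fold change of 0.548 had a 95% interval of 0.504 to 0.595. Without IL-1β replicate 1 the log2 fold change was -0.80. *Htra2*, the mitochondrial member of the family, averaged 35.5 ± 1.49 CPM in vehicle and 36.2 ± 0.608 CPM in IL-1β samples (log2 fold change 0.026, adjusted p = 0.721). The chondrocyte markers fell in the same samples as *Htra1* and *Htra3*, by the sums given above, and their part in these falls was not tested.

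The genes with the most similar pattern over the 8 samples were listed for the 2 members with the largest changes, by Pearson's r of log2(CPM + 1). For *Plat* these were *Rhoq* (r = 0.991), *Dand5* (0.990) and *Kpna3* (0.983), and for *Htra3* they were *Id2* (0.996), *Pter* (0.995) and *Rarg* (0.994). The 8 points form 2 groups by treatment, so genes that differ between the groups share a high r.

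The promoters of the 3 members that fell are shown to set them beside that of *Plaur*. Each holds the 250 bases before the RefSeq start in GRCm38.p6, at chr7:130935953-130936202 on the plus strand for *Htra1*, chr5:35679781-35680030 on the minus strand for *Htra3* and chr11:75422624-75422873 on the minus strand for *Serpinf1*, and none has capitals because neither motif matched.
Htra1: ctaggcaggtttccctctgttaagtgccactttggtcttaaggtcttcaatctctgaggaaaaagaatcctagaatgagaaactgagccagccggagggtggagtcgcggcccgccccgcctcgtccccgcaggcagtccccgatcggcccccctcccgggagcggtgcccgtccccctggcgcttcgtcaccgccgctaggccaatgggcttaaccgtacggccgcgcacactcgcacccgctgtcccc
Htra3: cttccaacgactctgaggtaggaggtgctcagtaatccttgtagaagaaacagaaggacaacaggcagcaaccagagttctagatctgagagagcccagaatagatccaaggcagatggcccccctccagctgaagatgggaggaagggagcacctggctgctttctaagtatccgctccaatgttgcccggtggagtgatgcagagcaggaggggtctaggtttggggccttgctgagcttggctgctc
Serpinf1: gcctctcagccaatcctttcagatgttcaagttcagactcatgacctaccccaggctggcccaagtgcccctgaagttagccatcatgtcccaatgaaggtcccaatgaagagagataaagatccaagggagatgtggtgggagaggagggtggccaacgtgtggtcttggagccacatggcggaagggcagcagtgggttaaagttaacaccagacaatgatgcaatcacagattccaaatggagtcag
Their GC contents were 64.8, 54.8 and 51.6%, against 59.6% for *Plaur* and a median of 52.4% over all 32851 promoters. That of *Htra1* was the richest of the 4 in G and C, and *Serpine2*, whose level did not pass the test, had 78.8%.

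Levels were compared between genes only after division by gene length. In vehicle samples the order was *Serpine2* with 79.9 ± 1.65 CPM per kilobase, *Htra1* with 69.3 ± 1.36, *Plaur* with 45.7 ± 0.856, *Serpinf1* with 16.1 ± 0.983, *Htra3* with 11.9 ± 0.591, *Serpina3n* with 1.48 ± 0.433, *Plau* with 1.02 ± 0.247, *Plat* with 0.0755 ± 0.0410 and *Serpinb2* with 0.0333 ± 0.0410. The ranges of *Serpina3n* and *Plau* overlapped, as did those of *Plat* and *Serpinb2*, so these neighbours were not told apart. The order was the same with IL-1β. There the values were 79.3 ± 1.30, 54.7 ± 1.93, 52.9 ± 2.56, 10.5 ± 0.389, 6.45 ± 0.747, 1.63 ± 0.191, 0.710 ± 0.0884, 0.274 ± 0.0577 and 0.138 ± 0.131 CPM per kilobase, and *Htra1* and *Plaur* overlapped, as did *Plat* and *Serpinb2*. *Plaur* thus stood far above both *Plau* and *Plat*, and *Serpine2* above every other member, in both groups.

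**Figure D4:**
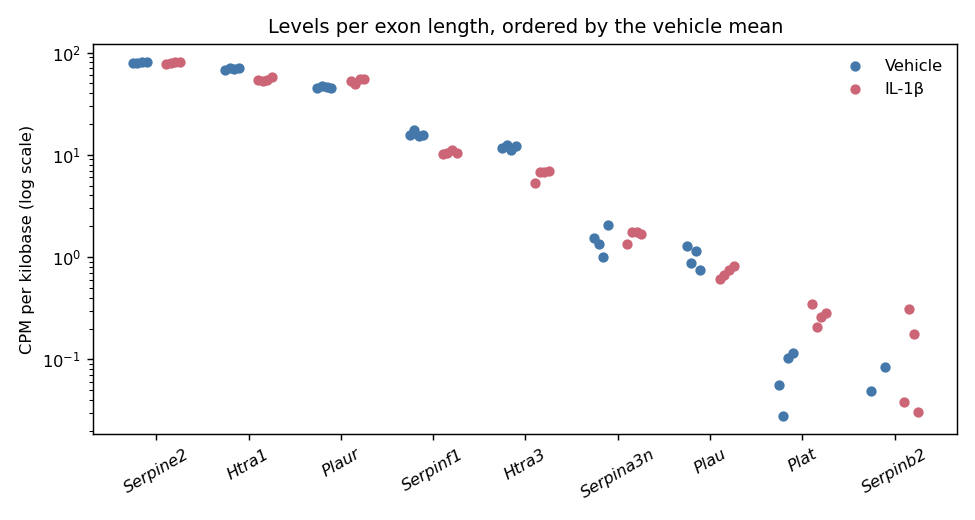
CPM per kilobase of gene length on a log axis for the 9 members, ordered by their vehicle mean, with 1 point per sample. Values span *Serpine2*, with means of 79.9 (vehicle) and 79.3 (IL-1β), to *Serpinb2*, whose 2 vehicle samples at 0 are not drawn.

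Of 9 genes whose products plasmin or uPA can cleave, 4 were tested. Of these 2 fell and none rose, against 19.8% and 20.4% of all genes tested, with a median of -0.26. *Pdgfc*, a growth factor that needs cleavage to become active, was the lowest, with a log2 fold change of -0.59 (adjusted p = 3.35e-06, edgeR's quasi-likelihood test), and *Mst1*, macrophage stimulating protein, the highest, with 0.14 (adjusted p = 0.709). Among 15 other secreted or surface serine proteases 9 were tested. Of these 1 rose and 6 fell, against the same 20.4% and 19.8% of all genes tested, with a median of -0.50. The DEGs of that list were *Pcsk6*, a proprotein convertase, downregulated from 269 ± 7.66 to 99.8 ± 5.82 CPM (log2 fold change -1.43, adjusted p = 5.43e-23), and *Prss23*, downregulated from 18.3 ± 1.73 to 6.53 ± 0.405 CPM (-1.49, adjusted p = 1.28e-13). *Pcsk6* and *Prss23* moved in the same direction as *Htra1* and *Htra3*.

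Among 14 genes listed as protease inhibitors other than serpins, not all of them inhibitors of serine proteases, 7 were tested. Of these 2 rose and 3 fell, against 20.4% and 19.8% of all genes tested, with a median of 0.20. *Slpi*, the secretory leukocyte protease inhibitor, rose from 1.48 ± 0.279 to 25.2 ± 2.84 CPM, a fold change of 16.6 (95% interval 13.9 to 19.9; log2 fold change 4.06, adjusted p = 7.39e-21, edgeR's quasi-likelihood test). *Spint2*, a membrane-bound Kunitz inhibitor, rose 2.41-fold from 24.8 ± 2.00 to 60.2 ± 2.13 CPM (adjusted p = 3.91e-18), and *Spock2*, a secreted proteoglycan of the testican family, fell from 16.1 ± 1.57 to 4.22 ± 1.14 CPM (log2 fold change -1.89, adjusted p = 3.54e-13). Neither rise had a counterpart of that size among the tested member serpins, whose log2 fold changes ran from -0.62 to 0.15.

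The calls of the tested members other than *Plat* and *Plau* did not depend on the processing choices tried. *Plaur*, *Serpinf1*, *Htra1* and *Htra3* passed in 15 of 15 alternatives and *Plat* in the 14 that tested it, with adjusted p-values up to 0.00023. *Plat* was not tested with a CPM above 1 in all 8 samples. It passed the planned filter through its IL-1β samples only, so nothing is read from its number of alternatives. *Serpine2* and *Serpina3n* passed in none of 15. *Plau* passed in 4 of 15, with log2 fold changes from -0.62 to -0.36.

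**Figure D5:**
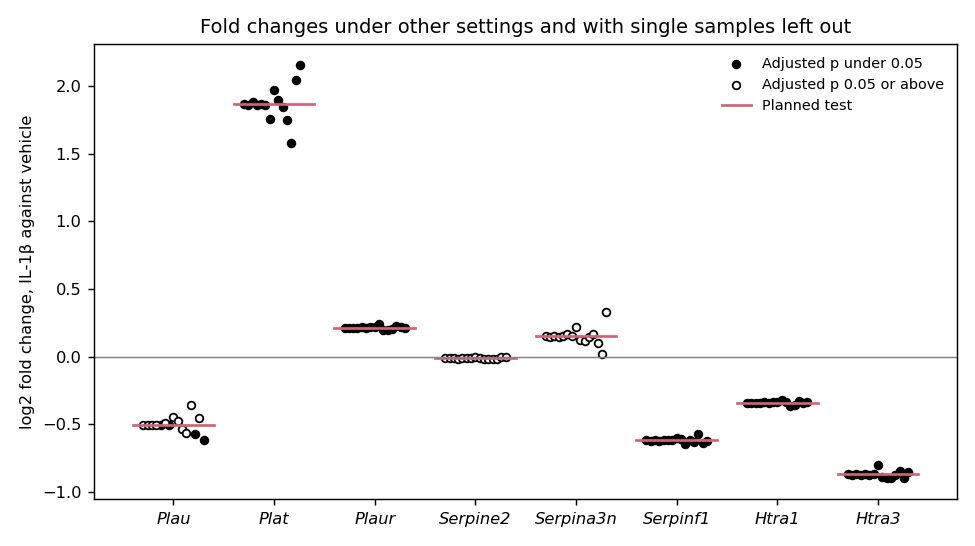
Log2 fold change of each tested member under the alternative settings (15 per gene and 14 for *Plat*), filled where the adjusted p was under 0.05, with the value of the planned test as a red line. *Plau* alone has filled and open points, 4 of 15 filled.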

How the data were processed

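RNA-Seq was analysed in 4 IL-1β and 4 vehicle samples, grouped by their labels. The authors trimmed reads with cutadapt, aligned them with STAR to mm10 (GENCODE vM20) and counted them with featureCounts (the submitters' processing notes give STAR 2.4.2a, Subread and DESeq2). The paper's methods name another version of STAR. The authors deposited whole-number counts for each gene symbol and a gene length in bases (unit: other). Whether the counts precede or follow the RUVseq batch correction named in the methods is not stated. The 8 count columns, all mapped to samples by name, were used as deposited.

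Library sizes were scaled by TMM factors. Treatment was the sole term of a negative binomial fit in R 4.3.3 with limma 3.58.1 and edgeR 4.0.16 (quasi-likelihood F-test), run on genes that exceeded a CPM of 1 in 4 or more samples, and p-values were adjusted by Benjamini-Hochberg over all 14404 genes tested. DEGs had an adjusted p under 0.05 and a log2 fold change above 1 or below -1. SEs and 95% intervals refer to the log2 fold change or its antilog. Limits set by 3 counts cover counting error only, and the reads carried no molecular identifiers. CPM were computed from all counts with TMM factors of 0.984 to 1.01, and total counts ran from 10992355 to 17456063 per sample. In data simulated for this comparison with 200 of 14404 genes changed, edgeR recovered 97% of changes of 1 and 100% of changes of 2 on the log2 scale, with 13 false calls. Smaller changes were not simulated, so these rates say nothing on the tested members other than *Plat*. The changed genes were drawn at random from all those tested, so the rates do not describe a gene of low counts such as *Plat* either.

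Alternatives were DESeq2 (1.42.0), its size factors, total library size, no filter, CPM above 1 in all 8 samples, a replicate block, 1 factor of unwanted variation (RUVs) and leaving out each sample. Positions and exon overlaps were taken from GENCODE vM21, which is of the same assembly and gives all 9 genes the deposited length, and promoters from RefSeq (GRCm38.p6), with entries for 7 of the 9. Protein sequences were not used here, and windows of 50 bases shared between transcripts, chosen after the data were seen, stood in for them. The remaining values came from Python 3.11.15 with pandas 2.3.3 and numpy 2.4.6, and plots from matplotlib 3.10.9.

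The members and lists were chosen with earlier results of these data known. Of each list the text names the DEGs, or the genes with the highest and lowest change where there was none, and for the 2 members with the largest change the 3 genes with the most similar pattern. *Lrp1*, *Serpinh1*, *Serpinb6a*, *Plg*, *Klkb1* and the genes that share sequence with *Serpinb2* and *Serpina3n* were added after their values were seen. A gene of the lists is not reported here.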

Additional observations from a re-analysis of the deposited data

Results flagged for a closer look

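In 38 groups of 4 samples compared by Dixon's ratio at its 95% limit, 2 had a sample that stood apart, where chance gives about 1 in 20, or 1.9. *Serpinf1* reached 41.4 CPM in replicate 2 of the vehicle group, whose other 3 samples had 36.4 to 37.1 CPM, and its log2 fold change without that sample was -0.57. *Htra3* was at 23.7 CPM in replicate 1 of the IL-1β group, whose other 3 samples had 29.9 to 30.7 CPM, and its log2 fold change without that sample was -0.80. Both genes passed edgeR's quasi-likelihood test with and without these samples.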

How the results depend on the processing

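No tested member changed direction in any alternative. With no filter there were 635 upregulated and 571 downregulated DEGs and 2 members among them, with *Serpinb2* added. That call rests on 19 against 5 counts, of which IL-1β replicates 2 and 3 held 10 and 7. With a CPM above 1 in all 8 samples there were 266 upregulated DEGs and 0 members among them, since *Plat* was not tested. *Plau* passed with that filter (adjusted p = 0.0448) and with RUVs (0.0457), and had 0.126 by DESeq2. Leaving out 1 sample gave 407 to 424 upregulated and 330 to 347 downregulated DEGs. Without division by length, *Serpine2* took 22.1% and 16.6%, *Serpinh1* 64.5% and 74.5% of the serpin counts (IL-1β and vehicle), *Plat* 50.1% and 16.5% of the activator counts, *Htra3* ranked above *Serpinf1* in both groups, and *Plat* above *Plau* with IL-1β. Samples that share a replicate number did not deviate together (r -0.0699 to 0.0415, against -0.085 to 0.0909 for other pairs). This gave no sign of a pairing by number and cannot exclude one, since a weak shared effect could leave r near 0. With the replicate block 5 members passed and 1 was a DEG, and 411 genes were upregulated and 340 downregulated DEGs. *Serpinb2*, *Plat*, *Plau* and *Serpina3n* had 64 counts or fewer in every sample, and the other 5 members had 263 or more.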

Other observations

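Genes of the coagulation surface, a list of 10 of which 6 were tested, held 1 that rose and 4 that fell by edgeR's quasi-likelihood test. By this test 20.4% of all genes tested rose and 19.8% fell. The median log2 fold change of the list was -0.46. *Procr*, the endothelial protein C receptor, was upregulated from 8.68 ± 0.511 to 25.2 ± 0.946 CPM (SD, n = 4; log2 fold change 1.54, adjusted p = 3.03e-16). *F2rl1*, the protease-activated receptor cleaved by trypsin-like proteases, was downregulated from 2.57 ± 0.527 to 0.917 ± 0.143 CPM (log2 fold change -1.45, adjusted p = 6.63e-06). *F13a1*, the A chain of the transglutaminase that crosslinks fibrin, was downregulated from 10.7 ± 1.18 to 3.92 ± 0.601 CPM (log2 fold change -1.43, adjusted p = 1.09e-10). All 3 remained DEGs in every alternative that tested them, 14 for *F2rl1* and 15 for *Procr* and *F13a1*. *F2rl1* averaged under 1 CPM with IL-1β and passed the filter through its vehicle samples. With a CPM above 1 in all 8 samples it was not tested, so nothing is read from its number of alternatives.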
